A study of Mus musculus with 6 samples.

Results

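The genes described here encode chaperones and cochaperones: the J-domain (DNAJ) proteins, the cytosolic chaperonin CCT, the heat shock protein Hsp90 with its partner Stip1, the mitochondrial chaperonin, the small heat shock proteins, and the Hsp110 and Bag exchange factors of Hsp70. Members were chosen by symbol, with earlier results of these data known. A probe set counted when its annotation gave exactly 1 gene symbol and that symbol began with Dnaj, Hsp90, Hspb, Hspd, Hspe, Hsph, Cct or Bag (a digit following Cct and Bag) or was Tcp1 or Stip1, and Hsp90b1 was left out. The rule found 50 genes among 8251 genes of the array, on 75 of 12422 probe sets. They comprise 3 DNAJA, 10 DNAJB and 14 DNAJC genes, 9 CCT genes, Hsp90aa1 and Stip1, the mitochondrial pair Hspd1 and Hspe1, 4 small heat shock protein genes, and 6 others (Hsph1, Bag1, Bag2, Bag3, Bag6 and Hspbp1). Where a gene had several probe sets, which was so for 19 genes, the one with the highest mean stands for it.

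Messenger RNA of mouse spinal cord was measured on 6 Affymetrix arrays, 1 for each of 3 genotypes at 2 ages. G93A-SOD1 mice, labelled B6SJL-G93A-SOD1H at 110 days and B6SJL-G93A-SOD1 at 75 days, carry the G93A form of superoxide dismutase known from familial amyotrophic lateral sclerosis; the submitters describe tremor and partial paralysis at 110 days and no symptoms at 75 days. WT-SOD1 mice, for which a B6SJL background is named at 75 days only, carry wild-type SOD1 and had no disease at 110 or 75 days, and nontransgenic B6SJL mice, also at 110 and 75 days, carry no transgene. Each array held RNA from 4 spinal cords, hybridised once; the sources used here name neither the promoter of the transgenes nor the sex of the mice. The WT-SOD1 and nontransgenic arrays of an age formed 1 disease-free group. No genotype has a replicate at an age, so the p-values of the comparisons with G93A-SOD1 and of the ages rest on the spread between WT-SOD1 and nontransgenic arrays of the same age, and the fit lends that spread to the single G93A-SOD1 arrays.

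Chaperones bind unfolded proteins and help them fold, keep them soluble or pass them on for degradation. Hsp70 is the hub of the cytosolic system: J-domain proteins bring it clients and stimulate its ATPase, nucleotide exchange factors such as Hsph1 and the Bag proteins reset it, and Stip1 hands clients on to Hsp90. CCT folds actin and tubulin, and the mitochondrial chaperonin of Hspd1 with its lid Hspe1 folds imported proteins. Many of these genes are switched on together when the heat shock factor Hsf1 binds heat shock elements, inverted repeats of the unit nGAAn, in their promoters. Misfolded SOD1 is a known client of this system.

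The arrays had median intensities of 77.7 to 80.9. In all, 6737 probe sets passed the filter that at least 1 array exceed the pooled median of 79.7; 41 of the 50 members did. Values under a floor of 31 were raised to it before log2 was taken. Bacterial spike-in controls averaged 834 on the 110-day WT-SOD1 and 631 on the 75-day nontransgenic array, against 351 to 457 on the other 4, and summed cerebellar markers (11 of 14 on the array) were highest on these arrays too, at 6826 and 6310 against 3531 to 4905. Each pair of disease-free arrays of an age holds 1 of them. Neuron markers (7 of 9 on the array, all above the floor) summed to 6759 and 7196 on the 110- and 75-day G93A-SOD1 arrays and to between 7931 and 9002 on the disease-free ones, with the highest sum on the nontransgenic 110-day array. Motor neuron markers (6 of 10) summed to 2174 and 2867 on the G93A-SOD1 arrays against 2933 to 3624, with Isl1 under the floor throughout. Microglia and macrophage markers (14 of 14, Fcer1g under the floor) summed to 9434 and 2415 against 2111 to 2645, and astrocyte markers (9 of 10) to 13474 and 9854 against 9006 to 10236. Oligodendrocyte markers (8 of 9) summed to 10158 and 10286 on the G93A-SOD1 arrays against 10684 to 11840, and blood markers (3 of 6) to 3423 and 5078 against 3617 to 4802. Hox genes of spinal levels (13 of 14, Hoxa10 under the floor) were present, with sums of 2194 and 2409 against 2063 to 2203. Vessel markers (7 of 7, Myh11 under the floor) summed to 492 and 501 against 482 to 516, and ependyma and choroid plexus markers (6 of 6) to 619 and 539 against 523 to 649. The part of these differences in the results below was not tested. Sod1, on a probe set for the mouse gene that was not used to check the transgenes, was at 1716 and 1738 on the 110- and 75-day G93A-SOD1 arrays, at 1906 and 1583 in WT-SOD1 cord and at 1498 and 1037 in nontransgenic cord.

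By log2 difference from the disease-free mean at 110 days, the members farthest away were the heat-inducible genes Dnajb1 and Hsph1, whose highest readings came from the older disease-free cords. By distance outside the range of all 4 disease-free arrays, Dnajc5 (-0.37) and Hspb8 (0.35) lay farther out than Hsph1 (-0.11) and Dnajb1 (-0.08). Dnajb1 (Hsp40), the J-domain partner of inducible Hsp70, read 115 and 138 on the 110- and 75-day G93A-SOD1 arrays, against 176 and 122 on the WT-SOD1 and 189 and 124 on the nontransgenic arrays of those ages. Both 110-day disease-free arrays were high, and the other 4 lay together between 115 and 138. Hsph1 (Hsp110), an exchange factor that works with Hsp70 in disaggregation, read 778 and 885 on the 110- and 75-day G93A-SOD1 arrays, against 1064 and 871 on the WT-SOD1 and 1318 and 839 on the nontransgenic arrays. Again the 110-day disease-free arrays were the highest, and the 110-day G93A-SOD1 array was the lowest of all 6. In bulk tissue, less RNA per cell and fewer cells of a type cannot be told apart.

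At 110 days Dnajb1 in G93A-SOD1 cord was 0.632 times the disease-free level (log2 difference -0.66 ± 0.13 SE, limma, adjusted p = 0.0819), and Hsph1 was 0.657 times (-0.61 ± 0.16 SE, adjusted p = 0.204). Neither passed the threshold of 0.05. At 75 days the same differences were 0.16 and 0.05. The change of the difference between the ages was -0.82 for Dnajb1 (± 0.19 SE, adjusted p = 0.255) and -0.66 for Hsph1 (± 0.23 SE, adjusted p = 0.678); 0.416% of all probe sets passed there and 0 of 41 members did. At an unadjusted p under 0.05 these were the 2 members counted, both lower (6.23% of all probe sets, 2.05% lower). With the WT-SOD1 110-day array left out, both genes passed in the 110-day comparison (adjusted p = 0.0174 for Dnajb1 and 0.0146 for Hsph1), and with the nontransgenic 110-day array left out Dnajb1 passed (0.0473). With a term for the arrays of higher spike-in level, which leaves 1 residual degree of freedom, both passed (0.0285 for Dnajb1 and 0.0324 for Hsph1). Those arrays are the 110-day WT-SOD1 and the 75-day nontransgenic one. The term therefore cannot be told from a WT-SOD1 difference that changes with age. Against 1 mean of all 4 disease-free arrays the differences shrank to -0.38 for Dnajb1 (adjusted p = 0.732) and -0.37 for Hsph1 (0.712). On the 4 arrays of lower spike-in level alone Dnajb1 was at -0.40 (0.589). That setting compares with 1 mean of the 110-day nontransgenic and 75-day WT-SOD1 arrays, so it mixes ages and genotypes.

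Hsp90aa1 and its adaptor were also highest in the 110-day disease-free cords. Hsp90aa1, the inducible cytosolic Hsp90, read 2495 and 2269 on the 110- and 75-day G93A-SOD1 arrays, against 3298 and 2341 on the WT-SOD1 and 3420.0 and 2695 on the nontransgenic arrays. Stip1 (Hop), the adaptor between Hsp70 and Hsp90, read 203 and 215 on the G93A-SOD1 arrays, against 258 and 223 on the WT-SOD1 and 283 and 225 on the nontransgenic arrays. For both genes the 110-day disease-free arrays were above the other 4. The G93A-SOD1 difference at 110 days was -0.43 ± 0.15 SE for Hsp90aa1 (adjusted p = 0.338) and -0.41 ± 0.14 SE for Stip1 (adjusted p = 0.318).

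The mitochondrial chaperonin genes followed. Hspe1 (Hsp10) read 349 and 324 on the 110- and 75-day G93A-SOD1 arrays, against 464 and 339.7 on the WT-SOD1 and 438 and 318 on the nontransgenic arrays. Hspd1 (Hsp60), its partner, read 929.7 and 842 on the G93A-SOD1 arrays, against 1072 and 845 on the WT-SOD1 and 1035 and 884 on the nontransgenic arrays. In both, the 110-day disease-free arrays lay above the other 4. The differences at 110 days were -0.37 ± 0.14 SE for Hspe1 (adjusted p = 0.395) and -0.18 ± 0.13 SE for Hspd1 (adjusted p = 0.799). The bars of linear intensity for these 6 genes show one shape, with the 110-day WT-SOD1 and nontransgenic arrays tallest in each panel. They are also the 6 members with an unadjusted p under 0.05 (limma) for age in disease-free cord. Their shared shape is therefore no separate finding. Of the 41 tested members 17 had this order of arrays, and Bag3 and Hspb8 were among those that did not.

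**Figure D1:**
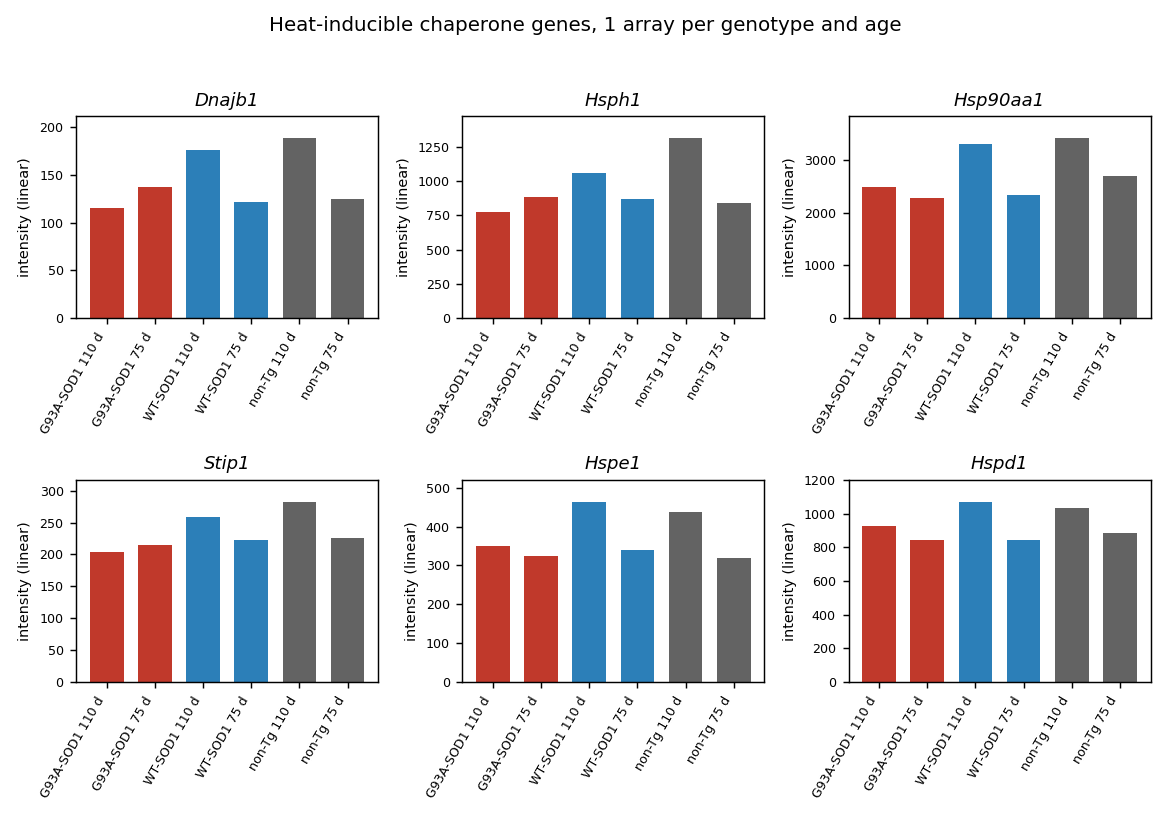
Linear intensity (vertical axes, each from 0) of Dnajb1, Hsph1, Hsp90aa1, Stip1, Hspe1 and Hspd1 on each of the 6 arrays (horizontal axes, d for days, non-Tg for nontransgenic), 1 bar per array and hence no error bars. In every panel the 110-day WT-SOD1 and nontransgenic bars are the tallest, as for Dnajb1 with 176 and 189 against 115 to 138 on the other arrays.

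The members' promoters were searched for heat shock elements. RefSeq promoter windows on GRCm38.p6, from 250 bases before to 50 after each annotated start, were at hand for 44 of the 50 members, and were not used for Cct4, Dnajc2, Dnajc5, Dnajc11, Hsp90aa1 and Hspb2. A run of 3 units was searched as GAANNTTCNNGAA and as TTCNNGAANNTTC, which are each other's reverse complement, and a run of 2 units, which the longer ones contain, as GAANNTTC and TTCNNGAA, which read the same on both strands. Runs of 3 units lay in windows of 4 members, or 9.09%, against 0.662% of the 27025 genes in the promoter table; runs of 2 units lay in 13 members, or 29.5%, against 16.97%. The 4 were Hspe1, Hspd1, Dnajb6 and Hsph1. The stretches that hold them are printed 5′ to 3′ with the 3-unit runs in capitals. Of the 6 genes described so far, Hspe1, Hspd1 and Hsph1 have such a run, the windows of Dnajb1 and Stip1 held no run of 2 or 3 units, and Hsp90aa1 had no window. Hspd1 and Hspe1 lie head to head, so a single run of 4 units in 18 bases lies in the windows of both, 71 bases before the Hspe1 start and, on the other strand, 126 bases before 1 of the 2 annotated Hspd1 starts.
Hspd1-Hspe1, between the starts, chr1:55087933-55088147, plus strand: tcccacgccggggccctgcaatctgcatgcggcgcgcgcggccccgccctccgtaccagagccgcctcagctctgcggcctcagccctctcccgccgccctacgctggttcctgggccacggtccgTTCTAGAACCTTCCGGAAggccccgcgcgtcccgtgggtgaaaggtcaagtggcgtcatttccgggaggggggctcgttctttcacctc
Dnajb6, the 100 bases before 1 of its 2 annotated starts, chr5:29735798-29735897, plus strand: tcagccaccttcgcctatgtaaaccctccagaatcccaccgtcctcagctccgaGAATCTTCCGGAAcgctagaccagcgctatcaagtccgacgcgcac
Hsph1, 30 bases just past 1 of its 2 annotated starts, chr5:149636279-149636308, minus strand: gctgcagaTTCTGGAAAGTTCtcctcagta

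In disease-free cord the 4 genes with a 3-unit run had differences between 110 and 75 days of 0.18 to 0.47 on the log2 scale, with a median of 0.37. The other tested probe sets of Hspd1 and Dnajb6 had differences of -0.14 and -0.04. Hspd1 and Hspe1 share a single run, so these genes do not carry separate elements. Whether the runs bear on the differences was not tested. The 7 tested members with only a 2-unit run lay between -0.08 and 0.25 (median 0.16), and the 24 tested members whose windows held neither lay between -0.19 and 0.57 (median 0.07). Dnajb1, at 0.57, and Stip1, at 0.27, belong to the last group. A match of letters describes the sequence and is no measured binding site, and its absence says only that these letters are not in the window.

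**Figure D2:**
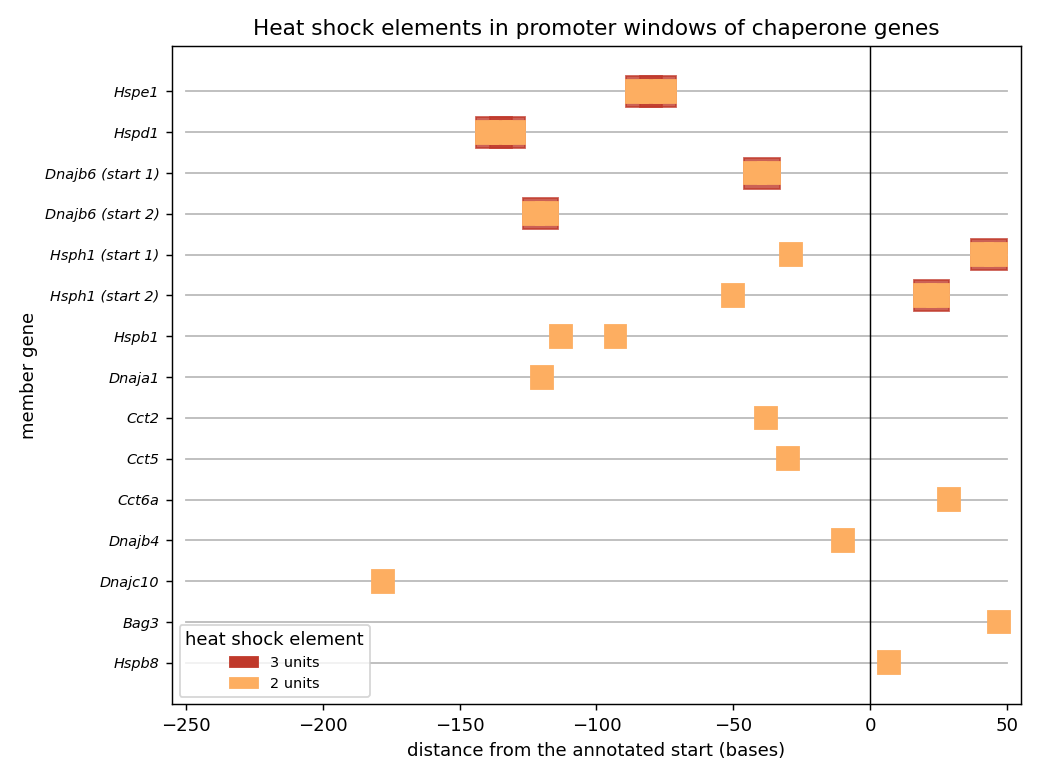
Positions of heat shock elements in the promoter windows of the 13 members with any match, in bases from the annotated start (vertical line at 0; the windows run from 250 before to 50 after it), 1 row per gene or, for genes with matches at several starts, per start. Red marks runs of 3 units, seen in Hspe1, Hspd1, Dnajb6 and Hsph1, and orange marks runs of 2 units, drawn inside the red where they overlap.

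The comparison of ages in disease-free cord asked what differed between 110 and 75 days without disease. None of the 41 tested members passed (limma with Benjamini-Hochberg adjustment; 0.0148% of all probe sets did, which is 1 of 6737). At an unadjusted p under 0.05, 6 members were higher at 110 days and 0 lower, which is 14.6% of them against 3.1% of all probe sets (2.55% higher): Dnajb1, Hsph1, Hspe1, Hsp90aa1, Hspd1 and Stip1. Dnajb1 was 1.48-fold higher (0.57 ± 0.11 SE, adjusted p = 0.907), Hsph1 1.39-fold, Hspe1 1.37-fold and Hsp90aa1 1.34-fold (adjusted p = 0.998 for each of these). With the mean of all probe sets of a gene the difference was 0.21 for Hsp90aa1 (0.42 as reported) and 0.07 for Hspd1 (0.29 as reported). The other Hsp90aa1 probe set was under the floor on every array, at 18.3 to 25.3. Its floored values are all equal, so the lower mean for Hsp90aa1 follows from the flooring. The other Hspd1 probe set was above the floor and had a difference of -0.14. Taken by genotype, which share no array, the difference with age was -0.26 in G93A-SOD1, 0.53 in WT-SOD1 and 0.60 in nontransgenic cord for Dnajb1. For Hspe1 it was 0.11, 0.45 and 0.46 in that order of genotypes, for Hsp90aa1 0.14, 0.49 and 0.34, and for Hsph1 -0.19, 0.29 and 0.65. The disease-free difference with age and the G93A-SOD1 difference at 110 days share the 110-day disease-free arrays.

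By the order of the arrays, both 110-day disease-free arrays lay above both 75-day ones in 19 of 41 tested members (46.3%), against 15.2% of all tested probe sets, and below them in 3 (7.32%, against 14%). Over all 50 members, floored values included, these counts were 21 and 3. Both 110-day disease-free arrays lay above all other 4 arrays in 17 tested members (41.5%, against 8.82%): Dnajb1, Hsph1, Hsp90aa1, Stip1, Hspd1, Hspe1, Dnaja1, Dnajb6, Dnajc3, Dnajc7, Bag1 and the chaperonin genes Cct4, Cct5, Cct6a, Cct7, Cct8 and Tcp1. With arrays scaled to 1 median the last count was 17 of 40, and with quantile normalization 14 of 40. The other tested probe sets of Cct5, Cct6a, Dnajb6 and Hspd1 did not have this order of arrays. Below the other 4, both 110-day disease-free arrays lay in 2 members (4.88%, against 5.36%). These shares carry no test. The median difference with age over the tested members was 0.09, and over all tested probe sets -0.0036. Across alternatives the member median ran from 0.07 (mean of the probe sets of a gene) to 0.18 (110-day WT-SOD1 array left out). The plot of the difference with age in each genotype has Dnajb1, Hsph1, Hspe1, Hsp90aa1 and Hspd1 in its top rows. For these genes the G93A-SOD1 point lies left of both others. The rows are ordered by the disease-free difference, so high WT-SOD1 and nontransgenic points at the top follow from the ordering. In the next row, Dnajb9, the points stand at 0.555 in G93A-SOD1, -0.059 in WT-SOD1 and 0.609 in nontransgenic cord.

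**Figure D3:**
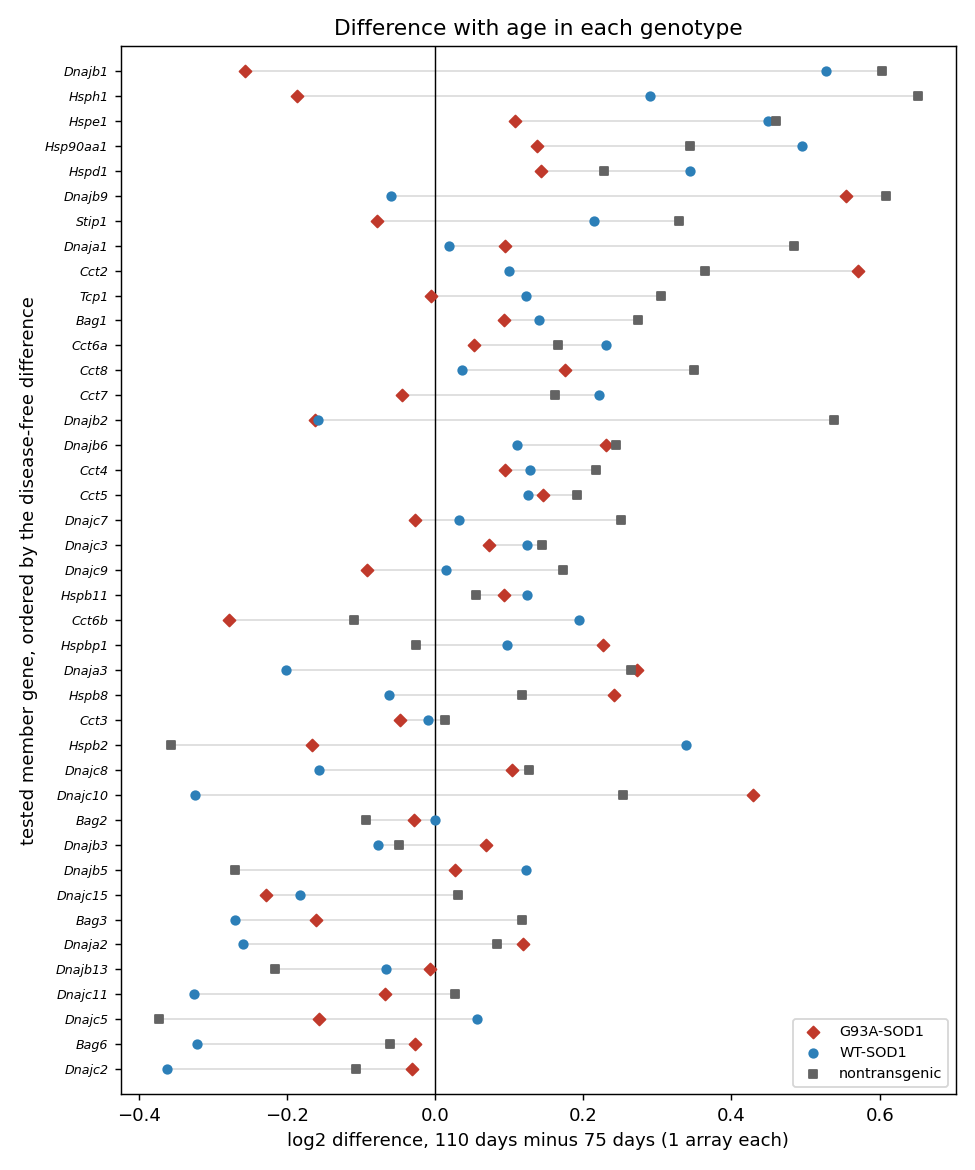
Log2 difference between the 110-day and the 75-day array (horizontal axis) of each genotype for the 41 tested members (rows, ordered by the disease-free difference), with diamonds for G93A-SOD1, circles for WT-SOD1 and squares for nontransgenic cord; each point rests on 1 array per age and has no error bar. For Dnajb1 the points stand at -0.26, 0.53 and 0.60.

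Age within G93A-SOD1 cord gave 0 calls among members (1.1% of all probe sets passed), and 1 member, a higher one, had an unadjusted p under 0.05 (10.3% of all probe sets, 7.15% higher). This was Cct2, a chaperonin subunit, which read 109 and 73.3 on the 110- and 75-day G93A-SOD1 arrays, against 108 and 101 on the WT-SOD1 and 122 and 94.4 on the nontransgenic arrays. Its 75-day G93A-SOD1 value was the lowest of the 6. The difference with age in G93A-SOD1 cord was 0.57 ± 0.17 SE (adjusted p = 0.295), beside 0.23 in disease-free cord.

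G93A-SOD1 cord at 110 days, the symptomatic stage, had 0 calls among 41 tested members, while 1.51% of all probe sets passed (1.38% higher and 0.134% lower). At an unadjusted p under 0.05, 6 members were lower and 1 was higher, or 17.1% of them against 10.3% of all probe sets (5.61% lower and 4.68% higher). The lower ones were Dnajb1, Hsph1, Hsp90aa1, Stip1, Hspe1 and Dnajc5, and the higher one was Hspb8. The member median was -0.10 (all tested probe sets -0.02), with 31 of 41 members below 0; it was -0.0671 with quantile normalization and -0.0591 against 1 mean of all disease-free arrays. The smallest adjusted p was that of Dnajb1.

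By class, the tested CCT genes had a median of -0.12 with 8 of 9 below 0, DNAJA of -0.09 with 3 of 3 below, DNAJB of -0.15 with 4 of 7 below, and DNAJC of -0.08 with 7 of 9 below. Of the small heat shock protein genes 2 of 3 lay above 0. On the 110-day G93A-SOD1 array 9 tested members lay below all 4 disease-free arrays (22%, against 27% of all tested probe sets) and 3 above them (7.32%, against 16.9%). Both shares were under those of the whole array. The plot by class shows most 110-day points under 0, with Dnajb1 and Hsph1 lowest and Hspb8 highest.

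**Figure D4:**
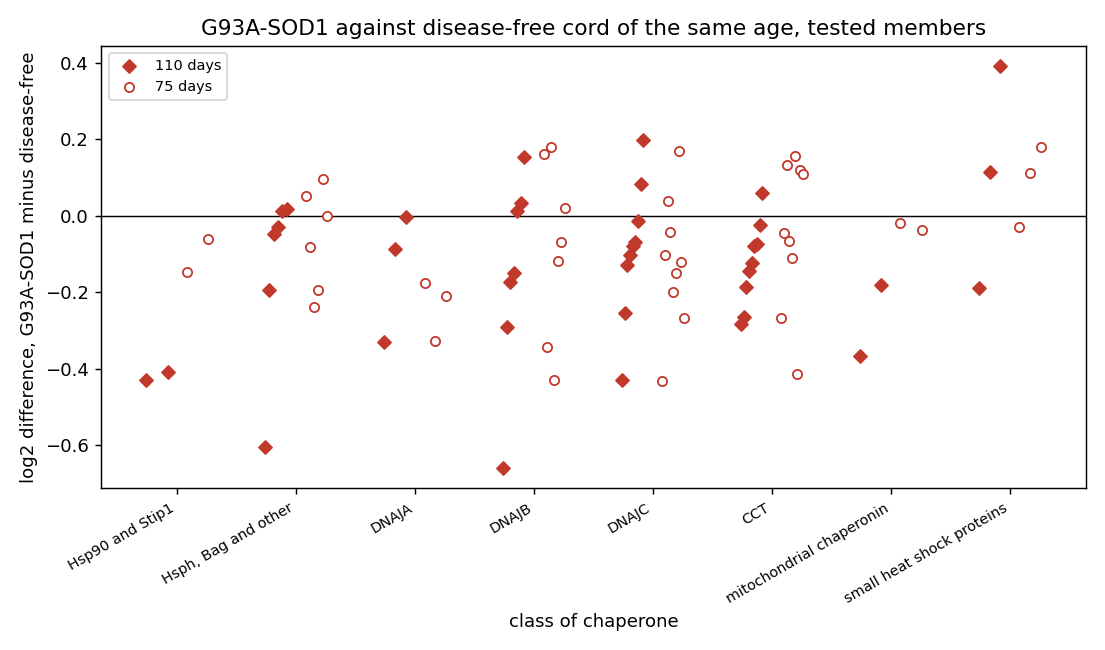
Log2 difference between G93A-SOD1 and disease-free cord (vertical axis) for the 41 tested members by class (horizontal axis), filled diamonds at 110 days and open circles at 75 days, 1 point per gene; error bars are left out. Dnajb1 at -0.66 and Hsph1 at -0.61 are the lowest points and Hspb8 at 0.39 the highest, all at 110 days.

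Hspb8, a small heat shock protein that works with Bag3 in selective autophagy and is known from cell models to aid clearance of mutant SOD1, was higher on both G93A-SOD1 arrays. It read 381 and 322 on the 110- and 75-day G93A-SOD1 arrays, against 282 and 295 on the WT-SOD1 and 299 and 276 on the nontransgenic arrays. The 4 disease-free arrays lay close together and below both G93A-SOD1 ones. This order was seen in 7.32% of tested members and in 6.23% of all tested probe sets. The difference was 0.39 ± 0.14 SE at 110 days (1.31-fold, adjusted p = 0.353) and 0.18 at 75 days (adjusted p = 0.683). With the mean of both Hspb8 probe sets the 110-day difference was 0.29. The second probe set was too dim to be tested. Only its 110-day G93A-SOD1 value, 35.3, lay above the floor of 31. Bag3 itself read 129 and 145 on the 110- and 75-day G93A-SOD1 arrays, against 125 and 151 on the WT-SOD1 and 131 and 121 on the nontransgenic arrays, and these ranges overlap.

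Of the other small heat shock protein genes, Hspb1 (Hsp25) was under the floor of 31 on every array, at 8.96 and 11.3 on the 110- and 75-day G93A-SOD1 arrays and 8.41 to 10.5 on the disease-free ones, so its probe set gives no order. Hspb11, which despite its symbol encodes an intraflagellar transport protein, read 111 and 104 on the G93A-SOD1 arrays, against 102 and 93.6 on the WT-SOD1 and 102.5 and 98.6 on the nontransgenic arrays (0.11 ± 0.13 SE at 110 days, adjusted p = 0.939). Hspb2, a muscle-enriched member, read 99.9 and 112 on the G93A-SOD1 arrays, against 135 and 107 on the WT-SOD1 and 95.9 and 123 on the nontransgenic arrays. Its highest values fell on the 110-day WT-SOD1 and 75-day nontransgenic arrays, the ones with higher spike-in controls. Muscle markers (13 of 13 on the array, Mb under the floor) summed to 1376 and 1292 on the 110- and 75-day G93A-SOD1 arrays, 1234 and 1950 on the WT-SOD1 and 1201 and 1372 on the nontransgenic arrays, an order unlike that of Hspb2.

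Among J-domain genes, Dnajc5 was low on both G93A-SOD1 arrays. It encodes cysteine string protein, a cochaperone of synaptic vesicles that protects nerve terminals, and read 150.0 and 167 on the 110- and 75-day G93A-SOD1 arrays, against 211 and 203 on the WT-SOD1 and 194 and 251 on the nontransgenic arrays. The groups did not overlap, as was so below the disease-free range for both G93A-SOD1 arrays in 5 tested members (12.2%, against 15.6% of all tested probe sets). The difference was -0.43 ± 0.17 SE at 110 days (adjusted p = 0.433) and -0.43 at 75 days (adjusted p = 0.496), beside the lower neuron marker sums given above. The 75-day value was -0.28 without the nontransgenic 75-day array. It was -0.25 on the 4 arrays of lower spike-in level, where the comparison mean includes the 110-day nontransgenic array. The other 4 such members were Dnajb6, Cct8, Tcp1 and Stip1, and the count was 3 with arrays scaled to 1 median and 3 with quantile normalization.

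Dnajb6, a J-domain protein known to suppress aggregation of polyglutamine proteins, read 653 and 556 on the 110- and 75-day G93A-SOD1 arrays, against 766 and 709.6 on the WT-SOD1 and 831 and 701 on the nontransgenic arrays. Both G93A-SOD1 arrays lay under all disease-free ones, by more at 75 days. The difference was -0.29 ± 0.13 SE at 110 days (adjusted p = 0.539) and -0.34 at 75 days (adjusted p = 0.496). A second probe set of the gene, weaker in signal, did not repeat this: it read 122 and 135 against 116 to 135. With the mean of both probe sets the differences were -0.16 at 110 days and -0.13 at 75 days. Dnaja1, a farnesylated Hsp40 of the cytosol, read 1041 and 974 on the 110- and 75-day G93A-SOD1 arrays, against 1189 and 1174 on the WT-SOD1 and 1442 and 1030.4 on the nontransgenic arrays (-0.33 ± 0.17 SE at 110 days, adjusted p = 0.607). The nontransgenic 110-day array was highest, and the 75-day nontransgenic value lay under the 110-day G93A-SOD1 one.

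Dnajb2 (HSJ1), a J-domain protein of neurons, read 288 and 322 on the 110- and 75-day G93A-SOD1 arrays, against 274 and 306 on the WT-SOD1 and 385 and 265 on the nontransgenic arrays, so its spread came from the nontransgenic pair. Dnajc15, a J-domain protein of mitochondrial import, read 71.5 and 83.7 on the G93A-SOD1 arrays, against 81.4 and 92.3 on the WT-SOD1 and 89.5 and 87.6 on the nontransgenic arrays. Its 110-day G93A-SOD1 value was the lowest (-0.26 ± 0.14 SE, adjusted p = 0.647). Dnajc8, associated with the splicing machinery, read 792 and 737 on the G93A-SOD1 arrays, against 778 and 867 on the WT-SOD1 and 901 and 825 on the nontransgenic arrays (-0.08 at 110 days). A second Dnajc8 probe set went the other way, at 652 and 673 on the G93A-SOD1 arrays against 598 to 647 (0.06 at 110 days).

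At 75 days, before symptoms, 0 members passed, as did 0% of all probe sets (limma; 9.86% of all probe sets had an unadjusted p under 0.05, and 3 members or 7.32% did, all lower, as were 6.52% of all: Cct2, Dnajb6 and Dnajc5). The member median was -0.07 and that of all tested probe sets -0.04. Over the alternatives the member median ran from -0.16, on the 4 arrays of lower spike-in level, to -0.0215, with quantile normalization. The former setting compares the 75-day G93A-SOD1 array with a mean of disease-free cord of both ages. On this array 20 tested members lay below all disease-free arrays (48.8%, against 34.7% of all tested probe sets) and 4 above (9.76%, against 23.8%). With quantile normalization the counts were 13 (32.5%, against 27.7%) and 7 (17.5%, against 32%). Cct2 had a difference of -0.41 ± 0.14 SE (adjusted p = 0.495).

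The ER-resident J-domain genes did not share an order of arrays. Dnajb9 (ERdj4), a partner of the ER Hsp70, read 212 and 144 on the 110- and 75-day G93A-SOD1 arrays, against 194 and 202 on the WT-SOD1 and 285 and 187 on the nontransgenic arrays. Its 75-day G93A-SOD1 value was the lowest (-0.43 ± 0.22 SE, adjusted p = 0.571), while the 110-day one lay inside the disease-free range. The 75-day difference was -0.26 with the mean of both probe sets. On the 4 arrays of lower spike-in level it was -0.73 (adjusted p = 0.144). The comparison mean there includes the 110-day nontransgenic array, the highest for this gene. Dnajc10 (ERdj5), an ER disulfide reductase, read 379 and 282 on the G93A-SOD1 arrays, against 283 and 354 on the WT-SOD1 and 386 and 324 on the nontransgenic arrays, with the 75-day G93A-SOD1 and 110-day WT-SOD1 arrays lowest. Dnajb11 (ERdj3) was too dim to be tested. It read 51.4 and 42.6 on the G93A-SOD1 arrays, against 70.3 and 44.0 on the WT-SOD1 and 63.8 and 40.3 on the nontransgenic arrays, which again put the 110-day disease-free arrays on top. Dnajc3 (p58IPK), an ER cochaperone, lay between 115 and 131 on all arrays.

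Other members lowest on the 75-day G93A-SOD1 array had mitochondrial and cytosolic roles. Dnaja3 (Tid1), the J-domain partner of mitochondrial Hsp70, read 415 and 344 on the 110- and 75-day G93A-SOD1 arrays, against 394 and 453 on the WT-SOD1 and 493 and 410.3 on the nontransgenic arrays (-0.33 ± 0.17 SE at 75 days, adjusted p = 0.571). Hspbp1, an exchange factor of Hsp70, read 455 and 389 on the G93A-SOD1 arrays, against 484 and 452 on the WT-SOD1 and 458 and 466 on the nontransgenic arrays, with the 75-day G93A-SOD1 value lowest (-0.24 ± 0.13 SE, adjusted p = 0.590; -0.15 with quantile normalization). The panels of linear intensity for Hspb8, Dnajb6, Dnajc5, Dnajc10, Dnajb9 and Cct2 show no common shape.

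**Figure D5:**
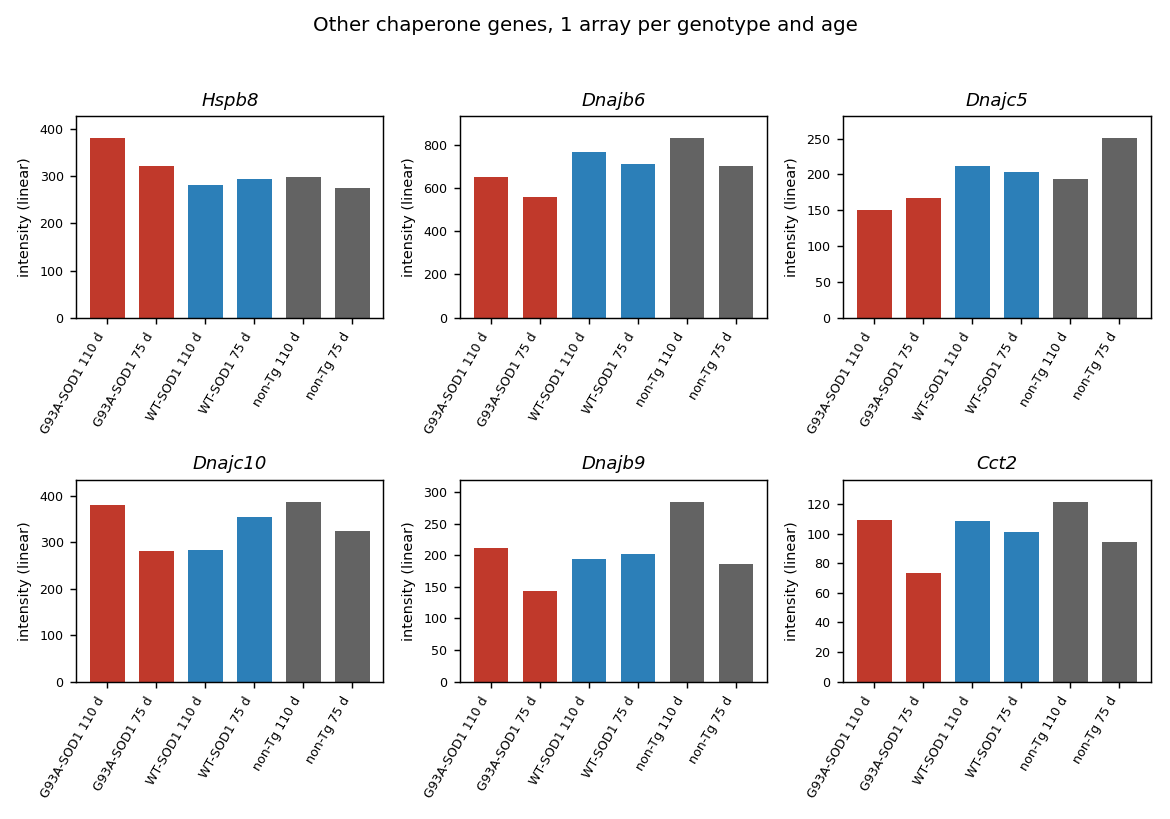
Linear intensity (vertical axes, each from 0) of Hspb8, Dnajb6, Dnajc5, Dnajc10, Dnajb9 and Cct2 on each of the 6 arrays (horizontal axes, d for days, non-Tg for nontransgenic), 1 bar per array and no error bars. Hspb8 is highest on the G93A-SOD1 arrays at 381 and 322, Dnajb6 and Dnajc5 are lowest there, and Dnajb9 and Cct2 are lowest on the 75-day G93A-SOD1 array at 144 and 73.3.

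Among the other chaperonin genes, Tcp1, the alpha subunit of CCT, read 124 and 125 on the 110- and 75-day G93A-SOD1 arrays, against 143 and 132 on the WT-SOD1 and 156 and 126 on the nontransgenic arrays (-0.26 ± 0.14 SE at 110 days, adjusted p = 0.612). Cct7 read 538 and 555 on the G93A-SOD1 arrays, against 575 and 494 on the WT-SOD1 and 562 and 503 on the nontransgenic arrays (-0.08 at 110 days). In disease-free cord all 9 CCT genes, on the probe sets that stand for them, had a difference with age above 0. These ran from 0.0020 to 0.23 (median 0.19, all tested probe sets -0.0036), and none had an unadjusted p under 0.05. The other tested probe sets gave 0.06 and 0.10 for Cct3, 0.0008 for Cct5 and -0.16 for Cct6a. Cct3, Hspb11 and Hspb8 were the 3 members above all disease-free arrays on both G93A-SOD1 arrays (7.32%, against 6.23% of all tested probe sets). For Cct3 the differences were 0.06 and 0.11 at 110 and 75 days, while its other tested probe sets had differences of -0.36 and -0.00027 at 110 days.

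WT-SOD1 against nontransgenic cord, the comparison for the transgene without disease, had 0 calls among members (0.104% of all probe sets passed) and 0 with an unadjusted p under 0.05 (1.17% of all). The fit leaves 1 residual degree of freedom, and limma gave all weight to its prior, so the SE of 0.19 is the same for every probe set and holds no spread of the gene's own. The largest differences were Dnajb9 at -0.22 ± 0.19 SE, Dnajc9 at 0.16, Dnajc10 at -0.16, Hspb2 at 0.15 and Dnajb2 at -0.14, each with an adjusted p of 1. Dnajc9, a histone cochaperone, read 247 and 244 on the 110- and 75-day WT-SOD1 arrays, against 233 and 207 on the nontransgenic ones, and 237 and 253 on the G93A-SOD1 arrays.

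Cct8 differed by -0.28 and -0.27 at 110 and 75 days (adjusted p = 0.617 and 0.590). The remaining tested members differed from disease-free cord of the same age by -0.21 to 0.15 on both G93A-SOD1 arrays. These were Cct4, Cct5, Cct6a and the testis-typical Cct6b, Dnaja2, Dnajb3, Dnajb5, the axonemal Dnajb13, the ribosome-associated Dnajc2, Dnajc7, the mitochondrial Dnajc11, and Bag1, Bag2 and Bag6. Besides Hspb1 and Dnajb11, 7 members did not pass the filter: Dnajb4, Dnajb8, Dnajc1, Dnajc4, Dnajc13, Dnajc17 and Dnajc21. Just inside the filter was Cct6b, with a highest value of 80.2, and just outside was Dnajb11 with 70.3. Identifiers ending in _f_at, _g_at, _r_at or _s_at, which can cross-hybridise, stand for Cct3, Cct6a, Dnajb3, Dnajc2, Dnajc8, Dnajc15, Bag2, Bag6, Hspbp1 and Hspb2.

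The rest of the chaperone network was read through a list of 54 genes, of which 40 were on the array and 30 tested. At 110 days 1 of the 30 fell and 0 rose in G93A-SOD1 cord (0.134% of all probe sets fell and 1.38% rose), and 9 were lower and 0 higher at an unadjusted p under 0.05, which is 30% of them against 10.3% of all. With age in disease-free cord 1 rose and 0 fell, against 0.0148% of all probe sets called. Both were Hspa1b, inducible Hsp70, which read 56.4 and 137 on the 110- and 75-day G93A-SOD1 arrays, against 252 and 54.4 on the WT-SOD1 and 282 and 64.7 on the nontransgenic arrays. It was lower in 110-day G93A-SOD1 cord by a log2 difference of -2.24 (adjusted p = 0.00138) and higher at 110 days in disease-free cord by 2.17 (adjusted p = 0.00409), and the change of its G93A-SOD1 difference also passed (-3.45, adjusted p = 0.00668), as did its difference with age in G93A-SOD1 cord (-1.28, adjusted p = 0.0285). Hspa1a read 136 and 199 on the 110- and 75-day G93A-SOD1 arrays, against 222 and 127 on the WT-SOD1 and 293 and 121 on the nontransgenic arrays (-0.91 at 110 days, adjusted p = 0.0828).

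At 75 days 0 of the 30 passed (limma; 4 were higher and 3 lower at an unadjusted p under 0.05, against 3.34% and 6.52% of all probe sets), and between WT-SOD1 and nontransgenic cord 0 passed and 0 had an unadjusted p under 0.05. Other genes of the network gave smaller values that did not pass. Hspa8 (Hsc70) read 668 and 745 on the 110- and 75-day G93A-SOD1 arrays, against 1025 and 688 on the WT-SOD1 and 879 and 695 on the nontransgenic arrays (0.46 with age in disease-free cord, adjusted p = 0.998). Hspa4l, a relative of Hsph1, read 217 and 224 on the G93A-SOD1 arrays, against 329 and 309 on the WT-SOD1 and 383 and 310.3 on the nontransgenic arrays (-0.71 at 110 days, adjusted p = 0.0858). At 75 days Fkbp5, a glucocorticoid-responsive Hsp90 cochaperone, had a difference of 0.66 (adjusted p = 0.495) and read 150.2 and 215 on the 110- and 75-day G93A-SOD1 arrays, against 217 and 147 on the WT-SOD1 and 149 and 127 on the nontransgenic arrays. Cryab, the small heat shock protein alphaB-crystallin, read 194 and 204 on the G93A-SOD1 arrays, against 199 and 148 on the WT-SOD1 and 156 and 143 on the nontransgenic arrays. The list median was -0.15 at 110 days, -0.06 at 75 days and 0.14 with age in disease-free cord.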

How the data were processed

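The deposited table holds 1 linear intensity per probe set and array for 12488 rows, 66 of them Affymetrix controls; per the labels, each array was hybridised and scanned once. The sources used here do not state how the authors summarised probes and scaled arrays. Log2 medians of the arrays differed by at most 0.06, so the deposited intensities were used unscaled. Trimmed means differed by up to 1.081-fold, from 142.5 on the 75-day G93A-SOD1 array to 154.0 on the 110-day nontransgenic array. Values under the 25th percentile of the deposited intensities (31) were raised to it. Symbols came from the platform annotation (10833 probe sets with 1 symbol, 396 with several, 1193 with none); a RefSeq table matched 10817 by Entrez identifier and changed 0.

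Tests used limma 3.58.1 in R 4.3.3 with 4 means (each G93A-SOD1 array, and disease-free cord at each age; 2 residual degrees of freedom), and for WT-SOD1 against nontransgenic an age term over the 4 disease-free arrays, with Benjamini-Hochberg adjustment over 6737 probe sets at 0.05. SE is limma's moderated standard error, on log2 of floored values. The number of arrays limits the precision. The fit was also run on simulated arrays. These had the same spread for every genotype, so they cannot check the lending of spread to the G93A-SOD1 arrays.

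Members and lists were chosen with earlier results of these data known. Values on every array are given for members past the threshold in any comparison, the 8 and 6 tested members farthest outside the disease-free range on the 110- and 75-day G93A-SOD1 arrays, the 5 with the largest difference for age in disease-free cord and the 5 for WT-SOD1, the highest mean of each class, and a fixed set of main chaperones; network genes are named when past the threshold or among the 3 largest differences of a comparison. Dnajb11, Cct8, Dnajc3 and Cct3 were added after their values were seen. Hsp90ab1 had no probe set of 1 symbol and was not analysed here. Alternatives covered scaling, floor, filter, probe sets, single arrays, a term for spike-in levels and a WT-SOD1 term. Others used 1 mean for all disease-free arrays, or only the 4 arrays of lower spike-in level. In the latter the 110-day nontransgenic and 75-day WT-SOD1 arrays shared 1 mean.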

Additional observations from a re-analysis of the deposited data

How the results depend on the processing

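Counts of members past the threshold were 0 in all 6 comparisons as reported and stayed 0 under every alternative run, except for G93A-SOD1 at 110 days. There the count was 2 with a term for the arrays with higher spike-in levels (Dnajb1 and Hsph1, both lower), and it ranged from 0 to 2 when single disease-free arrays were left out (2 without the WT-SOD1 and 1 without the nontransgenic 110-day array; each fit then has 1 residual degree of freedom, and the lone array is assumed to vary like the other pair). The fit with the spike-in term also has 1 residual degree of freedom. The cause of the higher counts was not tested. Counts by the order of the arrays under other scalings, chosen after seeing the data, stand in the report where they moved by over 1.5 times, except that with quantile normalization 5 members, against 3 as reported, had both 110-day disease-free arrays below both 75-day ones. Low signal sets a limit, since 24.6% to 25.9% of each array's probe sets were at or under the floor and 9 members were too dim to test. Leaving out an array was not possible for WT-SOD1 against nontransgenic, which would have no residual degree of freedom. No paired analysis was possible because each genotype and age has 1 array and the labels give no replicate numbers.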

Other observations

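Other probe sets of several members differed from the ones that stand for them. A second Hspd1 probe set read 176 and 179 on the 110- and 75-day G93A-SOD1 arrays, against 181 and 181 on the WT-SOD1 and 155 and 189 on the nontransgenic arrays, so it had no high values on the 110-day disease-free arrays. A second Cct5 probe set lay between 129.8 and 135 on all 6 arrays. A second Bag3 probe set, too dim to be tested, read 47.5 and 41.45 on the 110- and 75-day G93A-SOD1 arrays, against 49.5 and 37.05 on the WT-SOD1 and 51.15 and 36.65 on the nontransgenic arrays, higher at 110 days in every genotype, which the probe set in the report was not. A second Dnajb13 probe set read 69.3 and 38.3 on the 110- and 75-day G93A-SOD1 arrays, against 65.75 and 83.1 on the WT-SOD1 and 71.1 and 65.35 on the nontransgenic arrays, a 75-day difference of -0.94 (limma, adjusted p = 0.400) where the other probe set gave 0.02.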
